A study of Mus musculus with 39 samples.

Results

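Cells that held Mki67 RNA were divided by their Ccnb1 RNA, and both sides were compared across all genes. Of 39 single cells, 37 were considered and cells 9 and 79 were left out. Among the 37, 27 cells had Mki67 at 1 FPKM or more (a level per length of transcript and per total fragments). Of these 27, 18 cells had Ccnb1 at 10 FPKM or more and are called Ccnb1-positive, and 4 cells had Ccnb1 under 1 FPKM and are called Ccnb1-negative. The 5 cells between these limits were left out of the comparison, which thus rests on 22 of 39 cells. Each cell is named by the number in its label.

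The mice carried Lgr5-EGFP-Ires-CreERT2 and Rosa-lsl-tdTomato, alleles with which tamoxifen activates a recombinase driven by the Lgr5 gene and permanently marks Lgr5-expressing crypt cells and their later progeny with tdTomato. Tamoxifen was injected 24 h before total body irradiation with 10 Gy, and crypt epithelial cells positive for tdTomato and negative for the surface protein Sca1 were sorted 48 h after irradiation. All 39 cells carry these same labels, the animal of origin is not given, and no unirradiated cells were analysed here. Cells of unknown shared origin are not replicates, so all SDs describe cells of 1 labelled group and no test was made. The cells were captured in a microfluidic chip whose sites were viewed under a microscope, doublets were not called here, and the reads carry no molecular identifiers.

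Cyclin B1, encoded by Ccnb1, binds the kinase CDK1, builds up while a cell passes from DNA replication into the G2 phase, and is destroyed as mitosis ends. Ki-67, encoded by Mki67, is present in cycling cells in general and is lost when cells rest. In the crypt, dividing stem cells and their early progeny feed the epithelium, and irradiation stops division through damage checkpoints, among them the one before mitosis.

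Ccnb1 (Entrez Gene 268697; mm10, chromosome 13, 100778739 to 100786486, minus strand) was at 13.8 to 510 FPKM in the Ccnb1-positive cells, with a median of 183, and at 0, 0.11, 0 and 0.32 FPKM in the Ccnb1-negative cells 30, 34, 52 and 95. Mki67 (Entrez Gene 17345; chromosome 7, 135689788 to 135716379, minus strand) was at 1.61 to 88.8 FPKM in the Ccnb1-positive cells, with a median of 27.3, and at 1.01, 2.76, 7.52 and 14.7 FPKM in the same 4 Ccnb1-negative cells. These values chose the cells and are no result. The sides were not matched for Mki67, since 10 of 18 Ccnb1-positive cells had more than any Ccnb1-negative cell. The nearest cells inside the Mki67 limit were cell 30 at 1.01 FPKM and cell 14 at 1.61 FPKM, and the nearest outside were cell 46 at 0.90 FPKM and cell 76 at 0.85 FPKM. The lowest Ccnb1-positive cell was cell 17 at 13.8 FPKM of Ccnb1, and the highest cell between the limits was cell 7 at 9.23 FPKM. A wide gap separated the lower limit from both sides, with cell 56 at 3.06 FPKM above it and cell 95 at 0.32 FPKM below it.

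**Figure D1:**
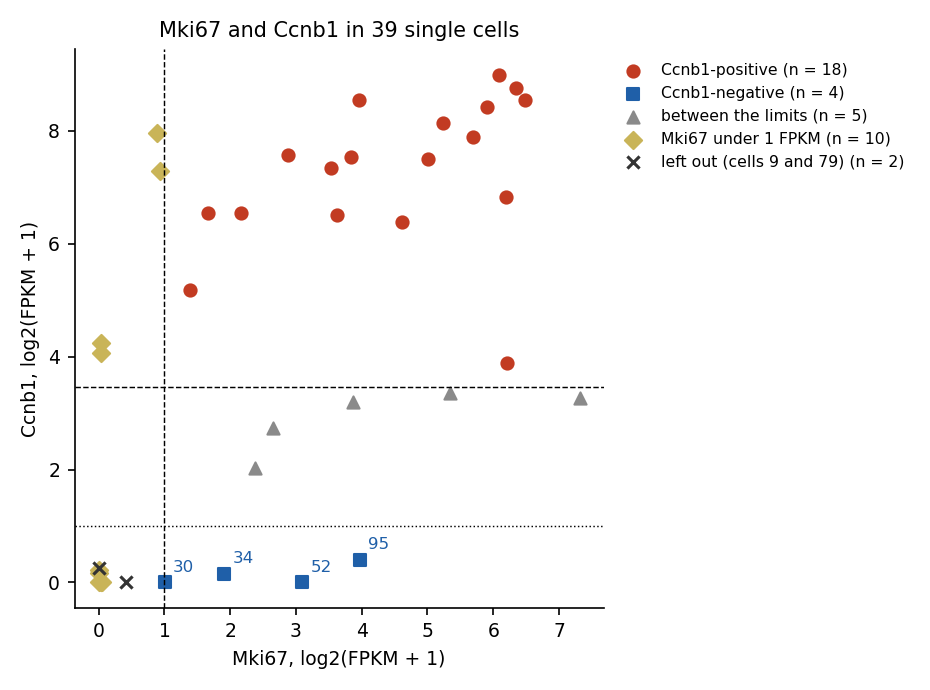
Ccnb1 against Mki67 in each of 39 cells, both as log2(FPKM + 1). The dashed lines mark 1 FPKM of Mki67 and 10 FPKM of Ccnb1, the dotted line marks 1 FPKM of Ccnb1, and the numbers name the 4 Ccnb1-negative cells, which lie at 1.01 to 14.7 FPKM of Mki67 while the 18 Ccnb1-positive cells reach 88.8 FPKM.

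The sides were alike in depth. The estimated counts on genes were 2257407 to 3903971 in the Ccnb1-positive cells (median 3312075) and 2533503 to 3738247 in the Ccnb1-negative cells. From 3785 to 5779 genes reached 1 FPKM in the Ccnb1-positive cells (median 4848.5) and 3287, 4995, 4592 and 4669 in cells 30, 34, 52 and 95, so that cell 30 was lowest of all. Summed over 9 epithelial marker genes, the level was 1451 to 3686 FPKM in the Ccnb1-positive cells and 2118 to 4249 FPKM in the Ccnb1-negative cells, whereas 11 immune markers summed to at most 0.508 FPKM in any cell of either side and 10 of 11 stromal and endothelial markers were at 0 in all 22 cells. Cell 34, a Ccnb1-negative cell, stood against its label, with 509 FPKM of Ly6a, the gene of Sca1, although the sort took cells without that protein. Cell 63, a Ccnb1-positive cell, held 41351 FPKM over 11 goblet cell markers, where the median of that side was 155. The part of these markers in the results was not tested, and values without cells 34 and 63 are given for the counts over all genes and for the medians of 6 lists.

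Across the table of 25219 genes, the 9272 whose mean over both sides reached 1 FPKM were used. This mean weighs the Ccnb1-positive side more, which holds 18 of the 22 cells. The difference of each gene was the mean log2(FPKM + 1) of the Ccnb1-positive cells minus that of the Ccnb1-negative cells. It was at least 1 for 1772 genes (19.1%) and at most -1 for 1399 genes (15.1%), with a median of 0.25 and a range of -1.75 to 1.90 from the 5th to the 95th percentile. A total of 5398 genes (58.2%) lay above 0. Without cells 34 and 63, 2259 genes were higher and 1454 lower by that margin. Of the genes past the margin, 55.9% were higher in Ccnb1-positive cells, and this share was 66.6% when the 5 cells between the limits joined the negative side, 69.9% on the scale of log2 ratios of mean FPKM, and 48.9% both in 3 pairs of cells with like numbers of detected genes and as a difference of medians, so that the balance of higher and lower genes depended on these choices. Apart from Ccnb1 itself, no gene lay above every Ccnb1-negative cell in all 18 Ccnb1-positive cells (0.0108% with Ccnb1), and 1 gene, Phlpp1, lay below them in all 18 (0.0108%). Single cells of both sides thus overlapped for nearly every gene, and the lists below are read against these shares.

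The promoters of the central genes are shown first, because genes of G2 and mitosis are known to share 2 promoter elements, the CCAAT box (letters CCAAT), bound by NF-Y, and the cell cycle homology region, or CHR (letters TTTGAA), bound by the MuvB complex. Each line gives the 150 bases before the annotated start in RefSeq, build GRCm38.p6, written 5′ to 3′ on the strand of the gene, with both elements in capitals on either strand. Ccnb1 (chr13:100786487-100786636, minus) and its relative Ccnb2 (chr9:70421555-70421704, minus) encode the B-type cyclins, and Cdk1 (chr10:69352913-69353062, minus) their kinase. Cdc20 (chr4:118437344-118437493, minus) encodes an activator of the ubiquitin ligase that ends mitosis. Kif11 (chr19:37376232-37376381, plus) and Kif22 (chr7:127042421-127042570, minus) encode motor proteins of the spindle and of chromosome arms.
Ccnb1: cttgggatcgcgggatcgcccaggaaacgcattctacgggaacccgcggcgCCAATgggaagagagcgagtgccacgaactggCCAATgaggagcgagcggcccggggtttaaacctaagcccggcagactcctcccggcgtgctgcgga
Ccnb2: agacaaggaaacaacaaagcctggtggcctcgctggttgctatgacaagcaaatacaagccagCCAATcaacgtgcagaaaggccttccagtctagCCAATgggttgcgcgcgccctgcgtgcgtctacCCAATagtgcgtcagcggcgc
Cdk1: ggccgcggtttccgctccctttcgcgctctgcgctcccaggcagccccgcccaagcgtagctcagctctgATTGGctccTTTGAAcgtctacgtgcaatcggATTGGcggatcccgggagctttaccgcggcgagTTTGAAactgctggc
Cdc20: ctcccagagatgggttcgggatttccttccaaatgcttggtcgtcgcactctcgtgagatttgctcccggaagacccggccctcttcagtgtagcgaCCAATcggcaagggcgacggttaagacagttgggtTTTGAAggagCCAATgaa
Kif11: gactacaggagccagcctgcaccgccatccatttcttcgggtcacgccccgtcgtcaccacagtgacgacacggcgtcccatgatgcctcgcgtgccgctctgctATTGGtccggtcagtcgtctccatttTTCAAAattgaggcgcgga
Kif22: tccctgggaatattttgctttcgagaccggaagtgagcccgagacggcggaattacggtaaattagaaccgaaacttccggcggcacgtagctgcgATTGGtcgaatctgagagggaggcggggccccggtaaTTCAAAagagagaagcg
The CCAAT letters of Ccnb1 started 99 and 67 bases before the start site, 32 bases apart, and those of Ccnb2 were 33 bases apart in both steps from 87 through 54 to 21 bases before it. Between the end of the nearest upstream CCAAT and the CHR letters lay 32 bases in Kif22, 21 in Kif11, 30 in Cdc20 and 28 at the CHR nearest to the start of Cdk1. The CHR letters were not in the printed windows of Ccnb1 and Ccnb2. Other division genes were looked at in the same window and are not printed. Ube2c and entry 2 of Prc1 held both elements. Cenpe, Hmmr, Plk1, Kif23 and entry 1 of Prc1 held CCAAT letters without CHR, and Birc5 held neither, so the printed pairs are not the rule. A match of letters is a description of the sequence and not a measured site.

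In the 300 bases of each promoter entry (250 before and 50 after the start, both strands), CHR letters were present for 33 of 51 spindle and kinetochore genes with an entry (64.7%) and 15 of 29 mitotic control genes (51.7%). They were present for 14.6% of the 7004 used genes with an entry and for 20.2% of all 27025 genes with a promoter entry in RefSeq. CHR and CCAAT together were found for 51% of the spindle genes, 51.7% of the mitotic control genes, 9.43% of the DNA replication genes and 6.15% of the used genes. The E2F letters TTTGGCGC or TTTCGCGC, which mark many genes of the start of replication, were found for 28.3% of replication genes, 7.84% of spindle genes and 2.04% of used genes. None of these motifs contains another. Within the mitotic control and spindle lists, CHR letters were present for 29 of 45 genes that were higher by 1 or more in Ccnb1-positive cells (64.4%) and for 18 of 32 that were not (56.3%). Of the 15 genes that led the difference upward, 12 had an entry, of which 11 held CCAAT letters (91.7%, against 43.5% of the used genes) and 5 held CHR letters (41.7%). These genes were picked by their values, so the shares are a description. Of the 15 that led downward, 10 had an entry, of which 4 held CCAAT (40%) and 1 held CHR (10%).

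Spindle and kinetochore genes stood out most in the comparison. Of 63 listed genes, 60 passed the filter, of which 39 (65%) were higher by 1 or more in Ccnb1-positive cells, 2 (3.33%) were lower by as much and 19 lay between, against 19.1% and 15.1% of all genes. Their median difference was 1.45, against 0.25 for all genes. It was 0.73 when the 5 cells between the limits joined the negative side, and 1.46 without cells 34 and 63. Without cell 30, the cell with the fewest genes detected, it was 1.12, and in the 3 matched pairs, which leave out cell 30, it was 1.18. The mean level of the list in a cell was 2.05 to 4.45 on the log2(FPKM + 1) scale in Ccnb1-positive cells (mean 3.04, SD 0.69) and 0.86, 1.72, 1.62 and 2.24 in cells 30, 34, 52 and 95 (mean 1.61, SD 0.57). In 16 of 18 Ccnb1-positive cells it was above all 4 Ccnb1-negative cells, and the difference of 1.43 was larger than the pooled SD over cells (0.67). Of these 60 genes, Ccnb1-positive cells held 27 to 54 at or above 1 FPKM and Ccnb1-negative cells 12 to 29.

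Kif22, a motor that moves chromosome arms, was at 0 FPKM in all 4 Ccnb1-negative cells and at 0 to 321 FPKM in Ccnb1-positive cells, with a median of 76.5. It was at 1 FPKM or more in 13 of 18 Ccnb1-positive cells (72.2%, exact Clopper-Pearson 95% interval 46.5 to 90.3) and 0 of 4 Ccnb1-negative cells (0 to 60.2). Its difference was 4.52, with a pooled SD over the cells of both sides of 2.92 on the same log2 scale. Where a gene is at or near 0 on one side, the difference depends on the pseudocount of 1 FPKM and is no bound on a fold.

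Cenpe, the kinesin that holds chromosomes to the spindle at the kinetochore, was at 0, 0, 0.04 and 0 FPKM in cells 30, 34, 52 and 95 and at a median of 24.0 FPKM in Ccnb1-positive cells (highest 78.2). It was above all 4 Ccnb1-negative cells in 17 of 18 Ccnb1-positive cells, with a difference of 4.25 (pooled SD 1.59), the narrowest spread among these motors. Hmmr, a microtubule-binding protein of the spindle poles, was at 0 FPKM in all 4 Ccnb1-negative cells and at a median of 28 FPKM in Ccnb1-positive cells (highest 136, difference 4.23, pooled SD 2.30). Kif11, which pushes the spindle poles apart, was at 0, 0.11, 0.07 and 0.10 FPKM in the Ccnb1-negative cells and at a median of 34.7 FPKM in Ccnb1-positive cells (highest 180, difference 4.02, pooled SD 2.23). Prc1, which bundles microtubules between the separating chromosomes, was at 0, 0.09, 0.10 and 0 FPKM in the Ccnb1-negative cells and at a median of 47.6 FPKM in Ccnb1-positive cells (highest 218, difference 4.10, pooled SD 2.76). These 5 genes are the spindle genes among the 15 that led the difference upward, so they were chosen by their values. None of the 4 Ccnb1-negative cells held any of the 5 at 1 FPKM or more, whereas every Ccnb1-positive cell held at least 2 and 8 of 18 held all 5.

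Not all kinetochore genes followed. Ska2, of a complex that couples kinetochores to microtubules, was at 0, 102, 0 and 71.6 FPKM in cells 30, 34, 52 and 95 and at a median of 0 FPKM in Ccnb1-positive cells (highest 46.2, difference -2.17, pooled SD 2.09). Ndc80, which contacts the microtubule directly, was at 21.2, 0, 80.9 and 21.6 FPKM in those cells and at a median of 1.41 FPKM in Ccnb1-positive cells (highest 237, difference -1.48, pooled SD 2.84). The sides overlapped widely for Ndc80, and its difference was 0.15 on the scale of log2 ratios of mean FPKM.

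**Figure D2:**
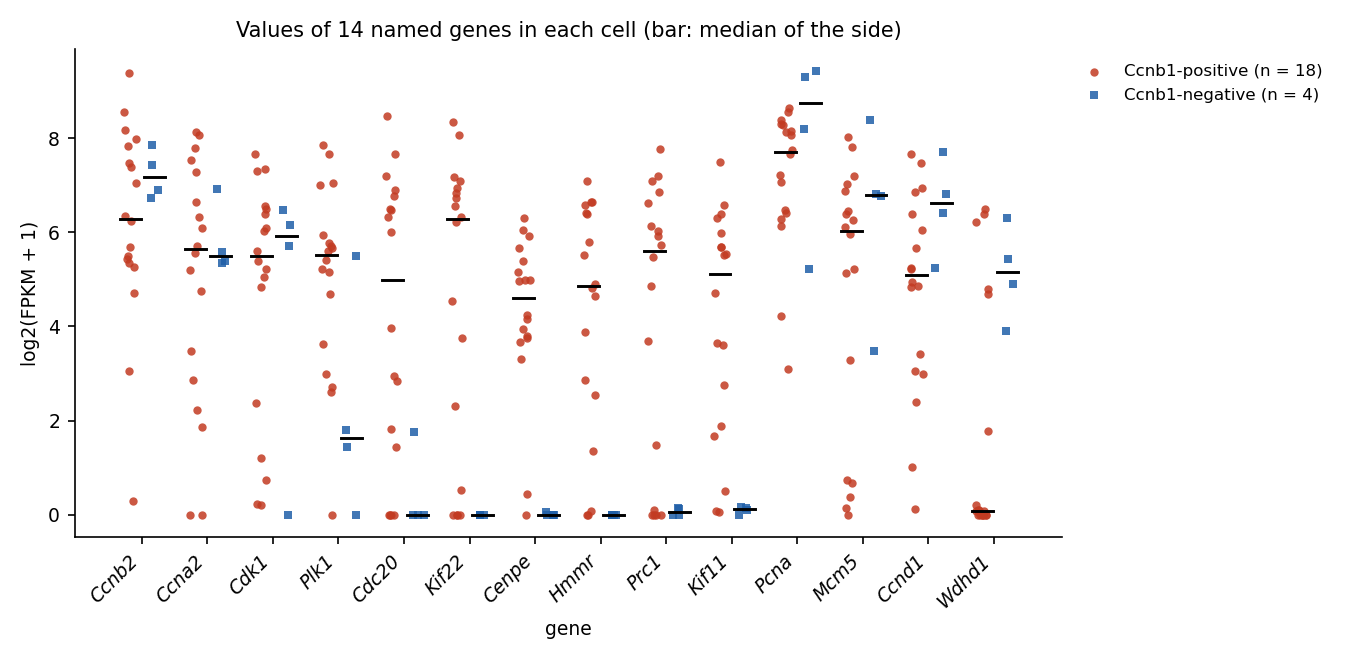
Values of 14 named genes in each cell as log2(FPKM + 1), with Ccnb1-positive cells (n = 18) at the left and Ccnb1-negative cells (n = 4) at the right of each gene, where the bar is the median of the side. Kif22 and Hmmr were at 0 FPKM and Cenpe, Prc1 and Kif11 at 0.11 FPKM or less in all 4 Ccnb1-negative cells, whereas Ccnb2, Ccna2 and, in 3 of 4 cells, Cdk1 were present there.

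Mitotic control genes, the cyclins, kinases and ubiquitin ligase parts that time mitosis, were higher as a list but divided. Of 39 listed genes (Ccnb1 left out), 38 were found and 35 passed the filter. Of the 35, 17 (48.6%) were higher by 1 or more in Ccnb1-positive cells, 4 (11.4%) were lower by as much and 14 lay between, with a median difference of 0.96 against 0.25 for all genes. The mean level of the list in a cell was 2.18 to 4.44 in Ccnb1-positive cells (mean 3.32, SD 0.66) and 1.24, 2.38, 3.01 and 3.08 in cells 30, 34, 52 and 95, so that 11 of 18 Ccnb1-positive cells were above all 4. The median was 0.60 without cell 30, the cell with the fewest genes detected, and 0.93 without cells 34 and 63. It was 0.33 in the 3 pairs with like numbers of detected genes and 0.15 as a difference of medians.

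The cyclin genes Ccnb2 and Ccna2 did not follow Ccnb1, whereas Ccnf, another cyclin gene of the list, was higher by 1.30, with means of 5.96 and 0 FPKM on the Ccnb1-positive and Ccnb1-negative sides. Ccnb2 was at 104, 230, 118 and 172 FPKM in cells 30, 34, 52 and 95 and at 0.22 to 664 FPKM in Ccnb1-positive cells, with a median of 77.3. It was thus well above 0 in all 4 cells without Ccnb1, and 10 of 18 Ccnb1-positive cells had less of it than any of them (difference -1.02, pooled SD 2.0). Counting the cells between the limits as negative turned this difference to 0.70. With single cells left out, it was smaller than 1 in size in 10 of 22 runs, and the mean FPKM was near equal, at 149 on the Ccnb1-positive and 156 on the Ccnb1-negative side. Ccna2, encoding cyclin A2 of S phase and G2, was at 47.1, 41.1, 39.8 and 121 FPKM in the Ccnb1-negative cells and at 0 to 277 FPKM in Ccnb1-positive cells (median 48.9, difference -0.84, pooled SD 2.46). By mean FPKM, Ccna2 was higher on the Ccnb1-positive side (85.1 against 62.2). Its interval overlaps that of Exosc9, so reads of both may not be separable. Cdk1 was at 0, 51.3, 70.0 and 88.3 FPKM in the Ccnb1-negative cells and at a median of 44.4 FPKM in Ccnb1-positive cells (highest 201, difference 0.12, pooled SD 2.64). Ccnb2, Ccna2 and Cdk1 were all at 1 FPKM or more in 12 of 18 Ccnb1-positive and 3 of 4 Ccnb1-negative cells, the exception being cell 30, which lacked Cdk1.

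Among the 17 mitotic control genes higher by 1 or more were activators and enzymes of mitosis. Cdc20 was at 0, 0, 0 and 2.39 FPKM in cells 30, 34, 52 and 95 and at a median of 38.9 FPKM in Ccnb1-positive cells (highest 354, difference 3.74, pooled SD 2.84). Its interval overlaps that of Elovl1. Plk1, a kinase of mitotic entry and spindle assembly, was at 0, 2.50, 43.9 and 1.69 FPKM in the Ccnb1-negative cells and at a median of 44.6 FPKM in Ccnb1-positive cells (highest 229, difference 2.85, pooled SD 2.06). Cell 52 alone among the Ccnb1-negative cells was near that median. Cks1b, a small subunit of cyclin-dependent kinases, was at 0, 25, 143 and 55.6 FPKM in the Ccnb1-negative cells and at a median of 193 FPKM in Ccnb1-positive cells (difference 2.74, pooled SD 2.09). Ube2c, the conjugating enzyme that works with the mitotic ubiquitin ligase, was at 0, 15.2, 158 and 74.3 FPKM against a median of 188 FPKM (difference 2.64, pooled SD 2.52). The difference of Ube2c was -0.16 in 3 pairs of cells with like numbers of detected genes, which left out cell 30.

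The 4 mitotic control genes lower by 1 or more were Ccnb2 and 3 others. Fbxo5, an inhibitor of the mitotic ubiquitin ligase that is known to build up from S phase, was at 232, 176, 0.16 and 5.65 FPKM in cells 30, 34, 52 and 95 and at a median of 0.22 FPKM in Ccnb1-positive cells (highest 231, difference -2.79, pooled SD 2.73), and it was 2.61 in the 3 matched pairs. Mybl2, a transcription factor of G2 genes, was at 0, 16.5, 0 and 85.9 FPKM in those cells and at a median of 0.075 FPKM in Ccnb1-positive cells (difference -1.43, pooled SD 2.35). Lin54, the part of the MuvB complex that binds the CHR, was at 0, 0, 28.8 and 5.15 FPKM and at a median of 0 FPKM (difference -1.25, pooled SD 1.69). For each of the 3, some Ccnb1-negative cells were at or near 0, so the sides overlapped.

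**Figure D3:**
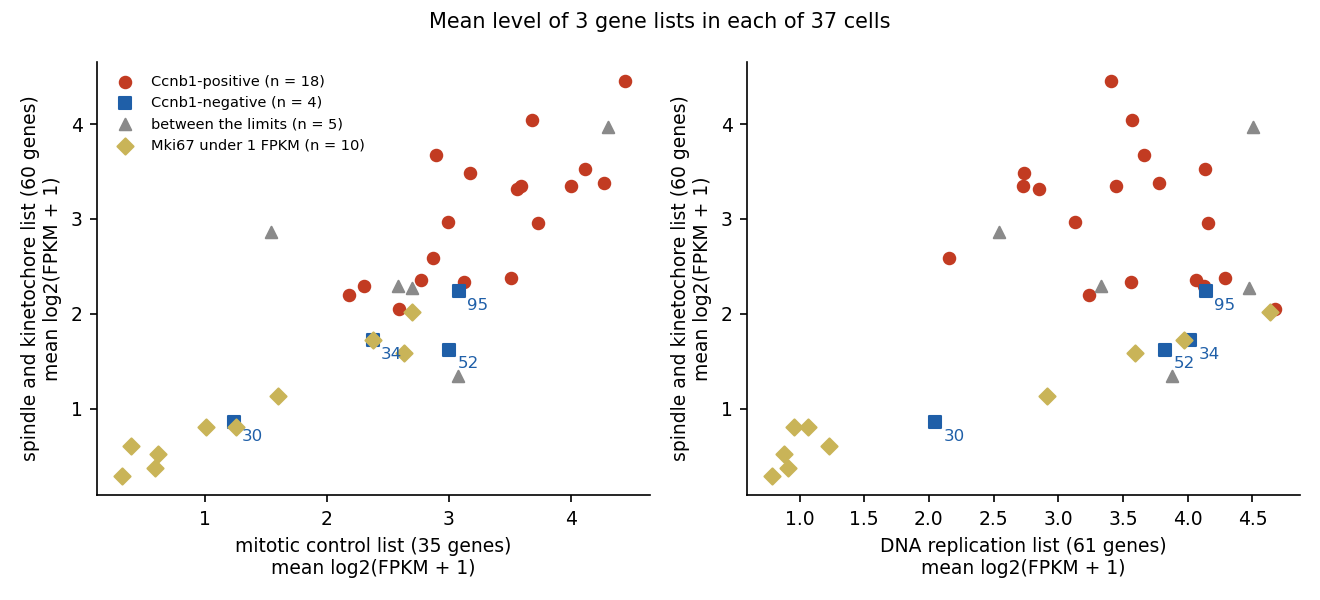
Mean log2(FPKM + 1) of the spindle and kinetochore list in each of 37 cells, against the mitotic control list (left) and the DNA replication list (right), with the 4 Ccnb1-negative cells numbered. The Ccnb1-negative cells lie at 0.86 to 2.24 on the spindle axis, below 16 of 18 Ccnb1-positive cells, while on the replication axis cells 34, 52 and 95 lie within the range of the Ccnb1-positive cells and cell 30 lies below it at 2.05.

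Chromatin condensation genes as a list were near the shares of all genes. Of 25 genes, all used, 5 (20%) were higher by 1 or more and 3 (12%) lower, against 19.1% and 15.1% of all genes, with a median difference of 0.26, near that of all genes (-0.02 without cell 52, 0.40 without cell 95 and 0.12 without cells 34 and 63). Ncapg, a condensin subunit, was at 0, 0, 0 and 0.68 FPKM in cells 30, 34, 52 and 95 and at a median of 14.9 FPKM in Ccnb1-positive cells (highest 161, difference 3.47, pooled SD 2.11). Ncaph, another condensin subunit, was at 0, 10.5, 0.22 and 0.74 FPKM against a median of 46.9 FPKM (difference 3.30, pooled SD 2.68). Ncaph2, a subunit of the second condensin complex, went the other way, at 85.8, 30.9, 15.7 and 84.5 FPKM against a median of 6.73 FPKM (difference -2.05, pooled SD 2.56). Top2a, topoisomerase II alpha, was at 23.5, 7.80, 118 and 15.9 FPKM against a median of 65.5 FPKM (difference 0.35, pooled SD 2.80). Of 13 tubulin and stathmin genes, 2 were higher by 1 or more and none was lower. The beta-tubulin gene Tubb4b was at 336 to 643 FPKM in the Ccnb1-negative cells and 447 to 1288 FPKM in Ccnb1-positive cells (difference 0.66, pooled SD 0.40).

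DNA replication genes showed no common direction. Of 61 used genes of 63, 13 (21.3%) were higher by 1 or more in Ccnb1-positive cells and 14 (23%) lower, with a median difference of -0.02. The mean level of the list was 2.16 to 4.67 in Ccnb1-positive cells (mean 3.54, SD 0.65) and 2.05, 4.02, 3.83 and 4.14 in cells 30, 34, 52 and 95, so that 3 Ccnb1-negative cells carried replication genes at levels common on the positive side. The median depended on cell 30: without it the median was -0.39, and without cells 34, 52 or 95 it was 0.22 to 0.28 (0.08 without cells 34 and 63, and 0.28 in the matched pairs). Among the genes lower by 1 or more, Wdhd1, a replisome protein, was at 14, 41.8, 29 and 78.2 FPKM in the Ccnb1-negative cells and at a median of 0.06 FPKM in Ccnb1-positive cells (highest 89.1, difference -3.42, pooled SD 2.45), where 13 of 18 cells had less than any Ccnb1-negative cell. Uhrf1, which keeps DNA methylation through replication, was at 53.1, 164, 117 and 151 FPKM against a median of 20 FPKM (difference -2.52, pooled SD 1.79). Mcm5, a subunit of the replicative helicase, was at 111, 109, 10.1 and 331 FPKM against a median of 64.6 FPKM (difference -1.71, pooled SD 2.81), whereas Mcm6 of the same ring was at 0.65, 167, 41.5 and 1.63 FPKM against 44.0 FPKM (difference 1.17, pooled SD 2.73). Neither direction was stable, as the difference of Mcm6 was -0.54 in the matched pairs and that of Mcm5 was 0.47 when the cells between the limits joined the negative side. Pcna, the sliding clamp, was at 682, 292, 628 and 36.3 FPKM against a median of 207 FPKM (difference -0.88, pooled SD 1.60). Prim1, the primase subunit that starts each new strand, led the genes that were higher, at 0, 0, 0.77 and 29.9 FPKM against a median of 45.7 FPKM (difference 3.27, pooled SD 2.29).

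Of 20 nucleotide supply genes, 6 were higher by 1 or more and 5 lower. The subunits of ribonucleotide reductase, which makes deoxynucleotides, differed in direction. Rrm1 was at 0, 0, 131 and 246 FPKM in cells 30, 34, 52 and 95 against a median of 128 FPKM (difference 3.0, pooled SD 1.94), and Rrm2 was at 250, 196, 355 and 268 FPKM against 140 FPKM (difference -1.69, pooled SD 2.36). Of 77 replication-dependent histone genes, 34 passed the filter, of which 0 were higher by 1 or more and 7 lower (median difference -0.33). Their transcripts are mostly without the poly(A) tail that this library kit primes on, and several are near-identical copies, so their values are uncertain.

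Of 25 G1 control genes, 2 (8%) were higher by 1 or more and 6 (24%) lower, against 19.1% and 15.1% of all genes. As a list they were not lower, since the median difference was 0.22, near the 0.25 of all genes, with 15 genes above 0 and 10 below. The genes named next were all lower. Ccnd1, the G1 cyclin D1, was at 208, 84.5, 37 and 112 FPKM in the Ccnb1-negative cells and at a median of 33.2 FPKM in Ccnb1-positive cells (highest 202, difference -1.82, pooled SD 2.03). Ccne1, cyclin E1 of the start of S phase, was at 10.8, 95.7, 0 and 21.3 FPKM against a median of 0 FPKM (highest 168, difference -1.79, pooled SD 2.88). Ccne2 was at 2.22, 2.36, 1.65 and 49.7 FPKM against a median of 0 FPKM (highest 36.2, difference -1.65, pooled SD 1.73). At 1 FPKM or more, Ccne1 was present in 3 of 4 and Ccne2 in 4 of 4 Ccnb1-negative cells, and each in 5 of 18 Ccnb1-positive cells. In the matched pairs the differences of Ccnd1 and Ccne1 were 0.17 and 0.23.

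**Figure D4:**
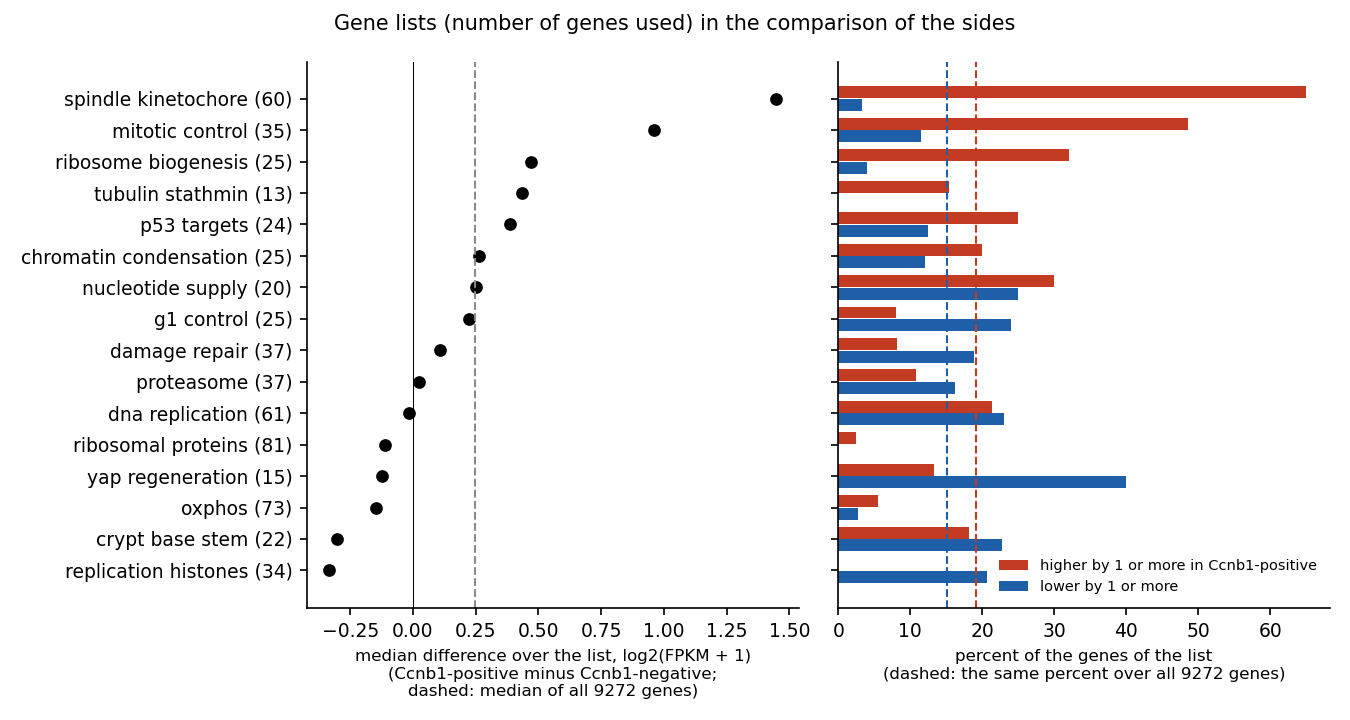
For 16 gene lists, the median difference (Ccnb1-positive minus Ccnb1-negative, log2(FPKM + 1); left) and the percent of genes higher or lower by 1 or more (right), with the numbers of genes used in brackets and the values over all 9272 genes dashed. The spindle and kinetochore list (65% higher) and the mitotic control list (48.6%) lie far above the 19.1% of all genes.

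Damage response genes did not separate the sides. Of 24 used p53 targets, 6 were higher by 1 or more and 3 lower, with a median difference of 0.39 that was -0.08 without cell 95, 0.86 without cell 34, 0.87 without cells 34 and 63 and -0.12 in the matched pairs. Cdkn1a, which encodes the inhibitor p21, was at 211, 116, 0.15 and 0.25 FPKM in cells 30, 34, 52 and 95 and at 0 to 384 FPKM in Ccnb1-positive cells, with a median of 14.2 (difference -0.04, pooled SD 3.35). Both sides thus held cells with and without it, 2 of 4 and 12 of 18 at 1 FPKM or more. Perp, a membrane protein induced by p53, was at 1.19, 328, 30.9 and 0.26 FPKM against a median of 80.3 FPKM (difference 2.30, pooled SD 2.23). Of 37 used repair genes, 3 were higher by 1 or more and 7 lower. Mre11a, of the complex that senses broken ends, was at 0, 0.26, 0 and 0 FPKM against a median of 20.4 FPKM (difference 2.79, pooled SD 2.35), and Parp2, which marks strand breaks, was at 353, 23.9, 449 and 64.9 FPKM against 30.9 FPKM (difference -2.77, pooled SD 2.63).

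Crypt base stem cell genes, in a list of 22 used genes, were higher by 1 or more in 4 and lower in 5, with a median difference of -0.30. This median had no stable direction, at 0.13 in the matched pairs, 0.21 when the cells between the limits joined the negative side, -0.05 without cell 52 and -0.25 without cells 34 and 63. Lgr5 itself was at 1 FPKM or more in 1 of 4 Ccnb1-negative cells and 3 of 18 Ccnb1-positive cells, with medians of 0.11 and 0.076 FPKM. Olfm4, a secreted marker of crypt base stem cells, was at 3083, 0.32, 2047 and 1157 FPKM in cells 30, 34, 52 and 95 and at a median of 823 FPKM in Ccnb1-positive cells (difference -0.08, pooled SD 3.74). Cd81, a membrane protein of the tetraspanin family, was at 1172, 453, 562 and 335 FPKM against a median of 348 FPKM (difference -1.17, pooled SD 1.42), and its difference was 0.13 in the matched pairs. Its interval overlaps another annotated gene. Smoc2, a matrix protein known from the same cells, was at 202, 135, 250 and 21.3 FPKM against a median of 29.7 FPKM (difference -2.36, pooled SD 2.52). Prom1, a membrane protein of stem and progenitor cells, went the other way, at 0.09, 15.4, 0.14 and 0 FPKM against a median of 29.5 FPKM (difference 2.86, pooled SD 2.24). Of 15 used YAP and regeneration genes, 2 were higher and 6 lower by 1 or more. The mean level of this list was 1.47, 1.67 and 1.86 in cells 30, 52 and 95, near the median of 1.60 in Ccnb1-positive cells, so only cell 34 stood out among the Ccnb1-negative cells. Counts without cell 34 are not given for this list. Cell 34, with 509 FPKM of Ly6a, and the Ccnb1-positive cell 51 had the highest mean levels of that list (4.95 and 4.92), and the other 3 Ccnb1-negative cells listed Ly6a at 0.

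Lists of general growth differed among themselves. Of 25 ribosome biogenesis genes, 8 (32%) were higher by 1 or more and 1 (4%) lower, against 19.1% and 15.1% of all genes (median difference 0.47), led by Ddx21, a nucleolar RNA helicase, at 0.63, 0.55, 10.2 and 55.7 FPKM against a median of 38.3 FPKM (difference 2.55, pooled SD 1.65). Of 81 ribosomal protein genes, 2 (2.47%) were higher by 1 or more and none lower (median -0.11), and the mean level of this list was 9.02 to 9.91 in Ccnb1-positive cells and 9.33 to 9.57 in Ccnb1-negative cells. Of 73 genes of oxidative phosphorylation, 4 (5.48%) were higher and 2 (2.74%) lower (median -0.15), and of 37 proteasome genes 4 were higher and 6 lower (median 0.02).

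Markers of other intestinal cell types did not set the sides apart. Over 14 Paneth cell markers the summed level was 8.17 to 4629 FPKM in Ccnb1-positive cells (median 395) and 126 to 1642 FPKM in Ccnb1-negative cells. Over 15 enterocyte markers it was 69.0 to 1405 FPKM (median 444) and 269 to 1161 FPKM, the highest of the latter in cell 34. Over 11 goblet cell markers it was 11.3 to 41351 FPKM and 38.5 to 587 FPKM. Of 12 enteroendocrine markers, 11 were at 0 in all 22 cells, and 9 tuft cell markers summed to at most 29.9 FPKM in any of them.

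Named by the size of the difference alone, the genes that led upward held 5 spindle genes and others outside the division lists. Idh2, a mitochondrial isocitrate dehydrogenase, was at 1.10, 2.47, 0.69 and 0 FPKM in cells 30, 34, 52 and 95 against a median of 80.1 FPKM in Ccnb1-positive cells (highest 224, difference 4.77, pooled SD 1.86), and 17 of 18 Ccnb1-positive cells were above all 4. Anapc5, a subunit of the mitotic ubiquitin ligase, was at 0, 3.42, 0.53 and 6.40 FPKM against a median of 50.7 FPKM (difference 3.97, pooled SD 1.94). Others were Fam103a1, Cgn, Rtcb, Gid8, Eif2b5, Ssu72 and Plek2, with differences of 3.77 to 4.12. Rtcb, an RNA ligase, was at 558 FPKM in cell 52 and Gid8, of another ubiquitin ligase, at 126 FPKM in cell 95, so not every leading gene was low in all Ccnb1-negative cells: 7 of the 15 were under 1 FPKM in each of the 4.

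Among the genes that led downward, Phlpp1, a phosphatase that acts on the kinase AKT, was at 7.64, 25.3, 24.2 and 25.5 FPKM in cells 30, 34, 52 and 95 and at 0 to 2.95 FPKM in Ccnb1-positive cells (median 0, difference -4.19, pooled SD 0.53). It was the only one of the 15 with no overlap between sides, and 1 of 18 Ccnb1-positive cells reached 1 FPKM. Cth, an enzyme of cysteine synthesis, was at 138, 55.1, 224 and 204 FPKM against a median of 6.25 FPKM (highest 358, difference -4.44, pooled SD 2.63). Tcf19, a transcription factor known from the start of S phase, was at 1.91, 12.3, 109 and 96.4 FPKM against a median of 0 FPKM (highest 53.3, difference -3.96, pooled SD 1.76), and Nup107, of the nuclear pore, was at 126, 87.4, 25.3 and 148 FPKM against 0.33 FPKM (highest 110, difference -4.04, pooled SD 2.53). Others, Saraf, Cela1, Cers5, 2810429I04Rik, Slc22a18, Slc35f6, Hibadh, Nudt8, Obfc1 and Commd5, had differences of -5.03 to -3.87, and the intervals of Saraf, Slc35f6 and Obfc1 overlap other annotated genes. Saraf, a regulator of calcium entry, was at 278, 135, 190 and 0 FPKM against a median of 0 FPKM (highest 68.6), and 6 of the 15 were at 1 FPKM or more in all 4 Ccnb1-negative cells.

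The 27 cells with Mki67 at 1 FPKM or more also gave the genes whose levels ordered the cells most like Ccnb1. Among 4927 genes whose mean reached 10 FPKM there, the Spearman correlation with Ccnb1 had a median of 0.03 and a 95th percentile of 0.37. It is a description over 27 cells, whose values share the depth and the gene detection of each cell. Among the 10 highest were Kif11 (0.71), Birc5 (0.70), Kif23 (0.66), Cenpe (0.64), Sars (0.63), Rbbp6 (0.62), Dnajc10 (0.60), Ube2c (0.60) and Ide (0.60). Birc5 encodes survivin of the chromosomal passenger complex and Kif23 a motor of the dividing cleft. The ranking uses the Ccnb1 values that set the sides, and 22 of the 27 cells are those compared, so it restates the split in part. The value was 0.49 for Plk1, 0.44 for Cdc20, 0.25 for Cdk1, 0.12 for Ccna2 and 0.10 for Ccnb2, and it was -0.43 for Mcm4, -0.34 for Mcm5 and -0.34 for Olfm4.

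Within the 18 Ccnb1-positive cells, Ccnb1 and the mean level of the spindle list varied together (Pearson r = 0.69, Spearman rho = 0.72, and r = 0.71 without cells 14 and 17, the farthest in Ccnb1). For Ccnb1 and the mitotic control list the values were 0.31 and 0.38, and for Ccnb1 and the replication list -0.47 and -0.41 (r = -0.31 without cells 14 and 17). The number of genes detected was nearly unrelated to Ccnb1 (r = -0.08) and weakly related to the spindle list (r = 0.33). Cell 60 had the highest mean levels of both the spindle list (4.45) and the mitotic control list (4.44), and cell 36 the lowest of the spindle list (2.05) together with the highest of the replication list (4.67). The positive side was therefore not uniform: 1 of 18 cells lacked Ccnb2 at 1 FPKM (cell 63), 1 lacked Plk1, 3 lacked Cdk1, 4 lacked Top2a and 4 lacked Cdc20.

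The 5 cells between the limits spanned both sides. Their mean level of the spindle list was 1.34 in cell 83, 2.28 in cell 43, 2.30 in cell 4, 2.87 in cell 56 and 3.97 in cell 7. Of Kif22, Cenpe, Hmmr, Prc1 and Kif11, cell 7, just under the limit at 9.23 FPKM of Ccnb1, held all 5 at 1 FPKM or more, cells 4, 43 and 56 held 3 each and cell 83 held 0.

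The same split was made in the 10 cells with Mki67 under 1 FPKM, which share no cell with the comparison above. The mean level of the replication list was lower in these 10 cells (median 1.15) than on either side above the limit (medians 3.56 and 3.92), but it was 4.64 in cell 46, 3.97 in cell 39, 3.60 in cell 76 and 2.91 in cell 86, the cells with Ccnb1, so that low Mki67 RNA alone did not mark low replication genes. Cells 39, 46, 76 and 86 had Ccnb1 at 18, 156, 250 and 15.7 FPKM, and cells 5, 16, 48, 67, 92 and 96 were under 1 FPKM. The number of genes at 1 FPKM was 3821, 5242, 4547 and 4438 in the former and 2988 to 4574 in the latter, and its part was not tested. Over 8308 genes used, 33.9% were higher by 1 or more in the former and 18.9% lower. Of 38 spindle genes used there, 28 were higher by 1 or more and 5 lower (median difference 1.97), and of 26 mitotic control genes 20 were higher and 0 lower (median 1.87). Of 23 spindle genes that were higher by 1 or more in the comparison of the 22 cells and used in both, 20 were above 0 and 17 higher by 1 or more here as well. The same held for 12 and 9 of 12 mitotic control genes and for 13 and 11 of 13 replication genes, and over all genes for 942 (59.7%) and 602 (38.1%) of 1579, so the overlap is not particular to the spindle list. Psrc1, a microtubule-binding protein, was 1 of the 3 spindle genes not above 0 here (1.67 there and -5.70 here). Unlike in the 22 cells compared above, 51 of 61 replication genes were also higher by 1 or more here (median difference 2.91), with Mcm5 at 7.02 and Pcna at 3.69. Of the 59 replication genes used in both, 26 were above 0 only in the cells with low Mki67. Ccnb2 was higher as well (3.89), against -1.02 in the 22 cells. The difference between both comparisons was not tested. Other lists moved with this split: 12 of 14 YAP and regeneration genes (median -1.96) and 12 of 21 p53 targets (median -1.04) were lower by 1 or more in the cells with Ccnb1. Higher by 1 or more were 15 of 20 nucleotide supply (median 3.20), 17 of 22 chromatin condensation (2.17), 17 of 25 ribosome biogenesis (1.60) and 20 of 31 repair genes (1.38). The spindle list thus did not stand out here. For tuft cell markers, 7 of 9 were lower by 1 or more (median -1.69), which reflects cell 96 almost alone and is no result of the split. Among the cells without Ccnb1, cell 96 held 11900 FPKM over the tuft cell markers, where the other 9 cells held 0 to 19.7 FPKM, and cell 5 held 26749 FPKM over the goblet cell markers, where the others held 89.0 to 902 FPKM. Cell 96 also had the lowest mean level of ribosomal protein genes of these 10 cells (7.71). The part of cells 96 and 5 in the other lists was not tested.

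**Figure D5:**
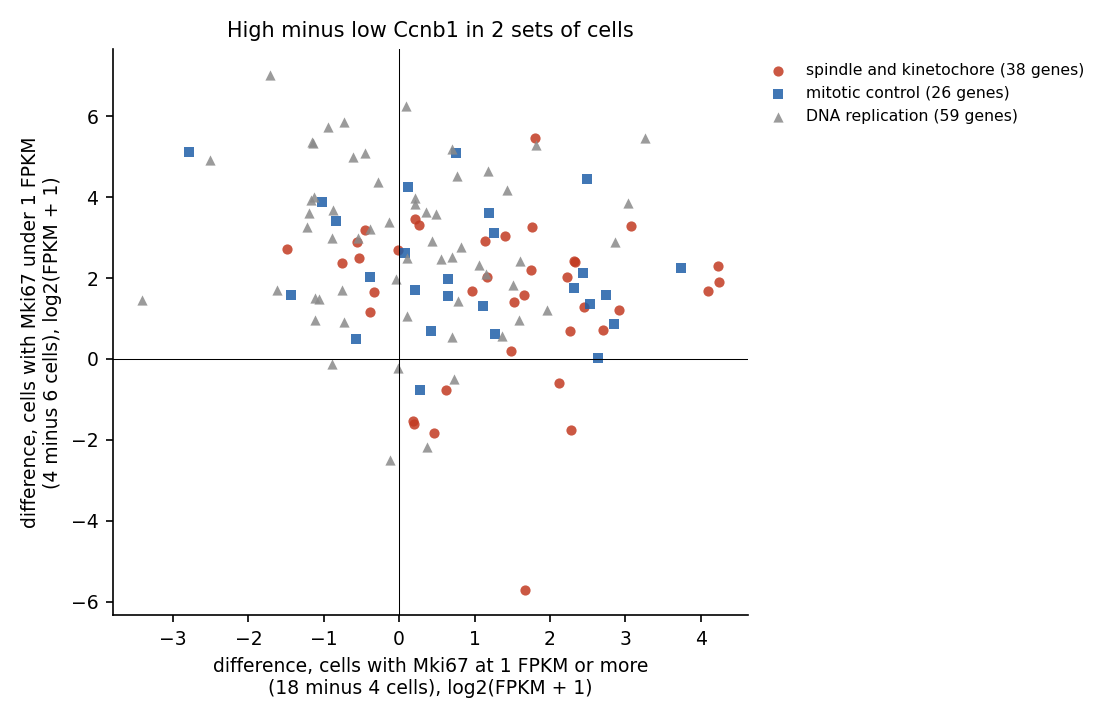
Difference in mean log2(FPKM + 1), high minus low Ccnb1, of genes of 3 lists in the 22 cells with Mki67 at 1 FPKM or more (horizontal, 18 minus 4 cells) and in 10 cells with Mki67 under 1 FPKM (vertical, 4 minus 6 cells). Above 0 in both lie 23 of 38 spindle, 19 of 26 mitotic control and 28 of 59 replication genes, against 32.8% of all 7459 genes used in both. Most replication genes lie above 0 on the vertical axis and on both sides of 0 on the horizontal axis.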

How the data were processed

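Each library is the RNA of 1 crypt cell, captured in a microfluidic chip, amplified with the SMARTer kit and sequenced from tagmented Nextera XT libraries as paired-end reads of 100 bases. The authors aligned the reads with TopHat2 2.0.14 to GRCm38, per the processing notes of the submitters, and deposited a table of estimated counts and a table of FPKM values per gene and cell. The tool that counted reads, its strand setting and the annotation are not given in the sources used here.

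The cells carry 1 group label and no animal, so no test was made and each comparison is a description. FPKM values were taken as log2(FPKM + 1). Genes were used where the mean over the 22 cells was at least 1 FPKM, and the difference is the mean of the Ccnb1-positive cells minus that of the Ccnb1-negative cells. Genes were counted as higher or lower at a difference of 1. Intervals of shares are exact Clopper-Pearson 95% intervals, which cover counting error only and take the cells as independent draws.

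The 15 genes each way with the largest difference were named, among those with a mean of at least 10 FPKM and at least 1 FPKM in at least 50% of the cells of the higher side, beside up to 4 genes at each end of every list and a fixed set of cell cycle, stem cell and damage genes. The members, the 24 gene lists and the named genes were chosen with earlier results of these data known. Psrc1 and Ccnf were named after their values were seen. Of the genes these rules name, 2 are not reported here.

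Depth was 2257407 to 3903971 estimated counts on genes in the 22 cells. Promoters came from RefSeq on GRCm38.p6, where 7004 of 9272 used genes had an entry. On simulated counts for 9272 genes, the check was read on genes with a simulated mean of at least 10 FPKM. There, planted differences of 2 came back as 1.90 (82 genes) and of -2 as -2.14 (40 genes), and of 5035 genes without one 4.97% passed 1 and 4.51% passed -1. The simulation gave every gene the same fixed spread among cells and no added zeros, unlike many genes of the real cells. These shares are therefore no rate of false calls for the comparison. Genes with lower means were not checked in this way. The alternatives were another pseudocount, other filters, thinning to 2257388 reads a cell, matched pairs, other limits of Ccnb1 and Mki67, other summaries and each cell left out. Leaving out cells 34 and 63 and limiting Mki67 were chosen after seeing the data. Calculations ran in Python 3.11.15 with scipy 1.17.1, pandas 2.3.3 and numpy 2.4.6, and plots were drawn with matplotlib 3.10.9.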

Additional observations from a re-analysis of the deposited data

Results flagged for a closer look

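Among 29 measures in the 4 Ccnb1-negative cells, 10 had 1 cell far from the other 3. The rate of about 1 in 20 that chance gives holds for normally distributed values. Most of these measures are FPKM of single cells, where with 3 cells at 0 any value above 0 in the other cell is marked, as for Cdc20 and Ly6a, so the number marked is not to be read against that rate. Cell 95 stood apart with a mean level of 5.41 over the chromatin condensation list, 121 FPKM of Ccna2, 2.39 FPKM of Cdc20 and 49.7 FPKM of Ccne2. Cell 52 stood apart with 43.9 FPKM of Plk1, 118 FPKM of Top2a, 65.7 FPKM of Mcm2 and 2.88 FPKM of Lgr5. Cell 30 had the lowest mean level of the replication list (2.05), and cell 34 alone held Ly6a (509 FPKM).

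Outside the cells compared, Ccnb1 was well above 0 in cells with Mki67 under 1 FPKM, at 18 FPKM in cell 39, 156 FPKM in cell 46, 250 FPKM in cell 76 and 15.7 FPKM in cell 86. Cell 9, which was left out with cell 79, held Top2a at 93 FPKM although its Mki67 was 0.33 FPKM.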

How the results depend on the processing

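No paired analysis was possible because all cells belong to 1 labelled group with no shared replicate numbers. Of 120 recomputed values of the 8 main results (the counts of genes and the list medians), 109 stayed and 11 moved. A count stayed within 1.5 times, and a median within the pooled SD over cells of the mean level of its list (0.48 to 1.10). This margin is wide: the mitotic control median counted as stayed at 0.33 against 0.96. Small list medians crossed 0 all the same: crypt base stem (-0.30) to 0.13 in the matched pairs and 0.21 with Ccnb1 at 10 or more against under 10, p53 targets (0.39) to -0.12 in the matched pairs, chromatin condensation (0.26) to -0.30 and -0.11 under both limits on Mki67, and replication (-0.02) to as much as 0.28. Of 1180 values of 98 named genes, 1092 stayed, 60 moved and 28 turned the sign of a difference of 1 or more. A gene stayed within its own pooled SD over cells, which is large for many genes, so these counts do not show that values were stable. The cause of each shift was not tested.

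The number of genes higher by 1 or more was 3118 with a pseudocount of 0.1 FPKM, 2803 with Mki67 at 10 FPKM or more (14 against 1 cell) and 3651 as log2 ratios of mean FPKM. The number lower was 874 with a filter at 10 FPKM, 2392 in 3 matched pairs, 631 with Ccnb1 at 10 FPKM or more against under 10, and 2409 with Mki67 at 10 FPKM or more. The median of the spindle list was 0.73 with Ccnb1 at 10 or more against under 10, those of the chromatin and replication lists were -0.30 and -1.25 with Mki67 at 10 or more, and that of the mitotic control list was 0.15 as a difference of medians. With each cell left out, 1666 to 2259 genes were higher and 1351 to 1867 lower.

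In the matched pairs, the sign turned for Mcm6 (-0.54), Ccne1 (0.23), Ccnd1 (0.17), Cd81 (0.13), Ube2c (-0.16), Fbxo5 (2.61) and Plk2 (-0.28). With Ccnb1 at 10 or more against under 10 it turned for Ccnb2 (0.70), Mcm5 (0.47) and Scn2b (0.74). With Mki67 at 10 or more, which left 1 Ccnb1-negative cell, it turned for Gid8 (-1.50), Saraf (0.76), Cers5 (1.05), 2810429I04Rik (0.26), Ly6a (0.21), Kif23 (-0.995), Rbbp6 (-0.15), Prim1 (-0.45), Trp53inp1 (0.53), Smoc2 (0.061), Tbcb (-1.02), Rrm1 (-1.25), Hist1h2ap (0.31), Ddx21 (-0.34) and Rrp9 (3.76). Ly6a was 0.18 without cells 34 and 63 and -2.83 to 0.17 with each cell left out, and Ndc80 was 0.15 as a log2 ratio of means.

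With 4 Ccnb1-negative cells, the interval for 0 of 4 reaches 60.2%. It takes the cells as independent draws, which is not known here, and does not allow for genes picked by their values, such as Kif22.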
